A study of Mus musculus with 4 samples.

Results

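The 10 genes described here encode the calcium-activated phosphatase calcineurin, the NFAT transcription factors that it dephosphorylates, its inhibitor Rcan1 and the NR4A orphan nuclear receptors. From the 54752 genes of the count files, the rows of these symbols were taken: Nr4a1, Nr4a2, Nr4a3, Nfatc1, Nfatc2, Nfatc3, Nfat5, Ppp3ca, Ppp3cb and Rcan1. Each symbol matched 1 row, and all 10 had enough counts to be tested. Naïve CD4+ T cells of the spleen were activated through CD3 and CD28 with IL-6 while TGF-β, IFN-γ and the cytokines IL-2 and IL-4 were blocked by antibodies, and RNA of viable cells sorted on day 3 was sequenced in 2 libraries per genotype. The Mek1/2-tKO cells came from Cd4-Cre+ mice homozygous for floxed alleles of both Map2k1 (fl/fl) and Map2k2 (fl/fl), in which Cre driven from Cd4 regulatory sequence deletes MEK1 and MEK2 in T cells, and the WT cells came from mice described as littermates. Both genotypes received the same stimulation and cytokine conditions. The age of these animals and the origin of each library from a separate mouse were not given in the sources used here, so that the p-values measure the spread between these libraries, which may be technical.

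In a T cell, engagement of the antigen receptor activates phospholipase C-γ1, empties calcium from the endoplasmic reticulum and opens the ORAI channels of the plasma membrane. Calcium-bound calmodulin then activates calcineurin, a catalytic A subunit with a regulatory B subunit, and calcineurin removes phosphates from NFATc proteins, which enter the nucleus and bind DNA alone or beside AP-1. Nfat5 shares the DNA-binding domain but lacks the calcineurin docking site and is best known for the response to hypertonic stress. The NR4A genes are immediate early genes of antigen receptor signalling, and their products restrain effector responses of activated T cells. MEK1 and MEK2 lie on the other branch below the receptor, the RAS-ERK cascade, which feeds AP-1 and the phosphorylation of CREB and of ternary complex factors.

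All 3 NR4A genes and the NFAT genes Nfatc2 and Nfat5 fell in Mek1/2-tKO cells, Ppp3ca rose, and Nfatc1, Nfatc3, Ppp3cb and Rcan1 did not pass. A gene passed, or was called, at an edgeR quasi-likelihood test with an adjusted p under 0.05 over the 14330 genes tested together with a fold change of 1.5 or more in either direction. Thus 5 members were lower and 1 was higher. This is 60% of the members, where 35.8% of all tested genes were called, 19.3% as higher and 16.4% as lower. The genotypes did not overlap in 9 of the 10 members and in 78.3% of all tested genes. The median log2 fold change was -0.57 over the members and 0.02 over all tested genes.

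The total counts ranged from 16330802 to 18931090 per library, and for a gene with no counts the upper limit of 3 counts is 0.154 to 0.194 CPM, for counting error only (CPM is a count scaled to the library size, with TMM factors between libraries). Map2k1 fell from 181.7 and 187 CPM in the WT libraries to 98.0 and 105 CPM in the Mek1/2-tKO libraries. Map2k2 had 154.5 and 165 CPM in WT and 172 and 182 CPM in Mek1/2-tKO, a log2 fold change of 0.15 that did not pass the test. Reads were counted per gene, so that transcripts lacking a floxed exon are included. Cd4, the gene of the marker that names the CD4+ T cells put into culture, had 297 and 289 CPM in the WT libraries. It had 18.8 and 25.1 CPM in the Mek1/2-tKO libraries. The CD8 coreceptor genes rose, Cd8a from 35.4 and 31.0 CPM to 147 and 130.05 CPM and Cd8b1 from 32.02 and 28.3 CPM to 90.8 and 83.9 CPM. The summed level of the 9 alpha-beta T-cell markers was 2176 and 2182 CPM in WT and 1716 and 1553 CPM in Mek1/2-tKO, with 4 of the 9 lower. The other 5 did not pass in either direction, at log2 fold changes from -0.54 to 0.24. Of the markers of other cells, all 10 B-lineage, all 4 gamma-delta T-cell and all 6 NK-cell markers were higher in Mek1/2-tKO. So were the 5 of 8 myeloid markers that could be tested. B-lineage markers had a sum of 1254 and 1237 CPM in WT against 6393 and 6336 CPM in Mek1/2-tKO, led by Ighm, the immunoglobulin μ heavy chain. Gamma-delta markers went from 4.15 to 6.88 CPM to 164 to 183 CPM, with Trdc at 57.9 and 53.6 CPM and Tcrg-C2 at 59.2 and 45.96 CPM in the Mek1/2-tKO libraries, NK markers from 72.8 to 74.8 CPM to 495 to 545 CPM, led by Nkg7, and myeloid markers from 1.33 to 1.76 CPM to 15.7 to 22.6 CPM, led by Lyz2. The myeloid markers Adgre1 and S100a8 were at 0 in both WT libraries. These differences run alongside every result below, and their part in it was not tested. In bulk RNA, fewer cells of a type and less RNA per cell cannot be told apart.

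Exon length moved with the fold change in these libraries, and most of the members are long. Over all tested genes the median log2 fold change was 0.49 in the shortest 20% of them by exon length and -0.39 in the longest 20%, and 6 of the 10 members lay in the longest 20%, above 6.78 kb. The trend was also present between replicates. The median log2 ratio of Mek1/2-tKO replicate 2 to replicate 1 went from -0.13 in the shortest 20% to 0.09 in the longest, and all 10 members were lower in replicate 1 than in replicate 2, as were 50.1% of all tested genes. The fold changes of the members are therefore also given from a fit in which the trend of every library on exon length was taken out, an alternative chosen after the data had been seen. In that fit 4 members were lower and 1 was higher, where 29.4% of all tested genes were called, 17.1% as higher and 12.3% as lower. The median log2 fold change in that fit was -0.25 over the members and 0.0095 over all tested genes.

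**Figure D1:**
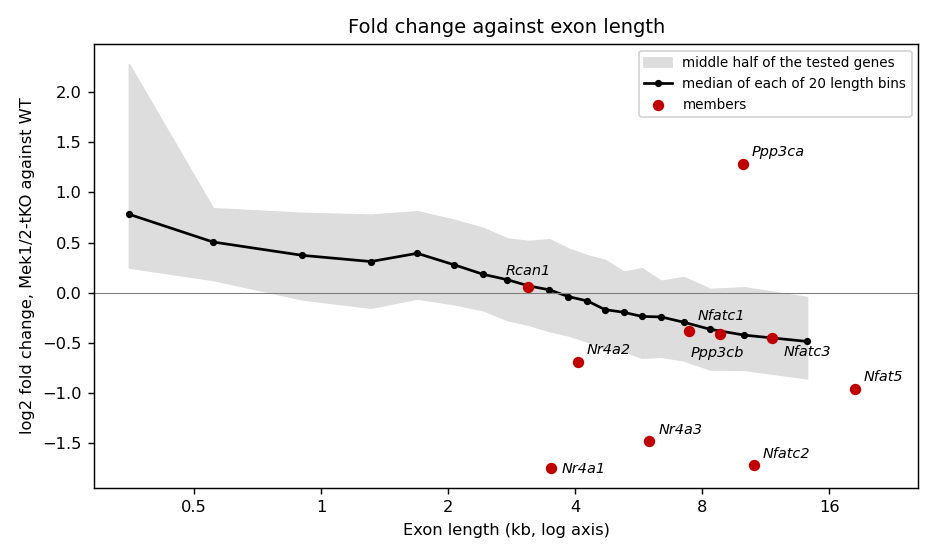
Log2 fold change (Mek1/2-tKO against WT) against exon length in kilobases (log axis). The line joins the medians of 20 bins of about equal gene number, the grey band runs from the lower to the upper quartile of the tested genes in each bin, and red points are the members. Nfatc1, Nfatc3, Ppp3cb and Rcan1 lie close to the line, whereas Nr4a1, Nr4a2, Nr4a3 and Nfatc2 lie under the band, Nfat5 lies lower than its right end and Ppp3ca lies over it.

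The 3 NR4A genes were all lower in Mek1/2-tKO cells, and their promoters are shown because these 3 paralogues moved together. The windows are the 250 bases before the RefSeq start site in GRCm38.p6, which for Nr4a1 lies inside the gene as the deposited annotation draws it. For Nr4a3 the last 152 bases of that window lie in an exon of the deposited annotation, and the 98 bases before it are shown. Capitals mark the half-site of the cAMP response element, TGACG or its reverse complement CGTCA, which CREB and ATF proteins bind.
Nr4a1, chr15:101266596-101266845, plus strand: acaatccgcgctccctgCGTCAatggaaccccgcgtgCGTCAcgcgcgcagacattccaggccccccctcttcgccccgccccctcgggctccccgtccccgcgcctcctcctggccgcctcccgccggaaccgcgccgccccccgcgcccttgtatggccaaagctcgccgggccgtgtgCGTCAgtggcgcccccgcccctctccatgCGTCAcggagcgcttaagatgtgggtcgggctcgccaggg
Nr4a2, chr2:57124004-57124253, minus strand: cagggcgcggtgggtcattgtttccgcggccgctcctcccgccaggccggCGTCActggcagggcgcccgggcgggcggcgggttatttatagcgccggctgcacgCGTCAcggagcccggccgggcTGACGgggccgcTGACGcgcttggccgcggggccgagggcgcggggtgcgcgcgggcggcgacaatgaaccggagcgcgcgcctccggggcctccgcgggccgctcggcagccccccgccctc
Nr4a3, chr4:48045055-48045152, plus strand: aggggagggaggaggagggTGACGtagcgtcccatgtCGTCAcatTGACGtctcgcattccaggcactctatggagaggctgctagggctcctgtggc

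Each of the 3 full windows of 250 bases held 4 half-sites, whose first bases were at -233, -213, -69 and -40 from the start site in Nr4a1, at -200, -144, -123 and -111 in Nr4a2, and at -231, -213, -205 and -147 in Nr4a3. The Nr4a3 half-site at -147 lies in the stretch annotated as exon and is not shown above. At least 1 half-site was found in 17.8% of 32851 RefSeq promoter windows of that length, and at least 4 in 0.137%, or 45 windows. Of the other members in the table, Nfatc3 had 1 half-site at 1 of its 2 start sites and Rcan1 had 2 at 1 of its 2, while Nfatc2, Nfat5 and Ppp3cb had none in these windows. The half-site was 1 of 9 motifs searched on both strands and was chosen for display after the sequences had been seen. The others were the full cAMP response element TGACGTCA, which contains the half-site, the NFAT core GGAAA, the NR4A monomer site AAAGGTCA, the AP-1 motif TGANTCA, the EGR motif GCGGGGGCG, the ETS motif CCGGAAG, the GC box GGGCGG and the TATA motif TATAAA. No window of a member held AAAGGTCA, which 1.34% of all windows held. The match is a description of the letters and does not show that a factor binds. GC content was 74.4% in the window of Nr4a1 and 80.0% in that of Nr4a2 against a median of 52.4% over all windows. The half-site contains CG, and the percentages of windows with half-sites were not matched for GC content.

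Nr4a1 (ENSMUSG00000023034.7, chromosome 15, 101254269 to 101274795), also known as Nur77, had 269.7 and 279 CPM in the WT libraries and 80.7 and 83.3 CPM in the Mek1/2-tKO libraries. The 2 genotypes lay far apart and the replicates close together. Its log2 fold change of -1.74 (standard error 0.08, edgeR adjusted p = 8.75e-10) was a 3.35-fold lower level and ranked 361 in size among the 2355 lower genes. Nr4a3 (chromosome 4, 48045153 to 48086447), or NOR-1, had 169 and 168 CPM in WT and 57.6 and 63.0 CPM in Mek1/2-tKO, a log2 fold change of -1.48 (standard error 0.09, edgeR adjusted p = 1.25e-08). It was 2.79-fold lower and its genotypes did not overlap.

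Nr4a2 (chromosome 2, 57106830 to 57124003), or Nurr1, had the smallest fold change of the 3. It had 29.8 and 30.1 CPM in the WT libraries and 15.95 and 21.1 CPM in the Mek1/2-tKO libraries, so that the 2 Mek1/2-tKO values stood further apart in proportion than those of its paralogues. The log2 fold change was -0.69 (standard error 0.15, 95% interval -1.01 to -0.36, edgeR adjusted p = 0.00159), with rank 1957 of the 2355 lower genes. Without Mek1/2-tKO replicate 1 it was -0.50 and no longer reached the fold change threshold.

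The decreases were unequal, and the share of each receptor in the family total is given beside them. Counted per kilobase of exon, Nr4a1 made up 68.4 and 69.1% of NR4A counts in the WT libraries and 62.9 and 60.1% in the Mek1/2-tKO libraries. Nr4a2 went from 6.53 and 6.44% to 10.8 and 13.2%, and Nr4a3 from 25.1 and 24.4% to 26.3 and 26.7%. The genotypes did not overlap in any of these shares, but with 2 libraries in each genotype the smallest two-sided p of an exact permutation test is 0.33, which is the p of each. The family sum went from 114 ± 1.90 to 38.0 ± 2.05 CPM per kilobase (SD, n = 2 each), a ratio of 0.334. The exon length trend was not taken out of the shares and sums of this family or of the families below.

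**Figure D2:**
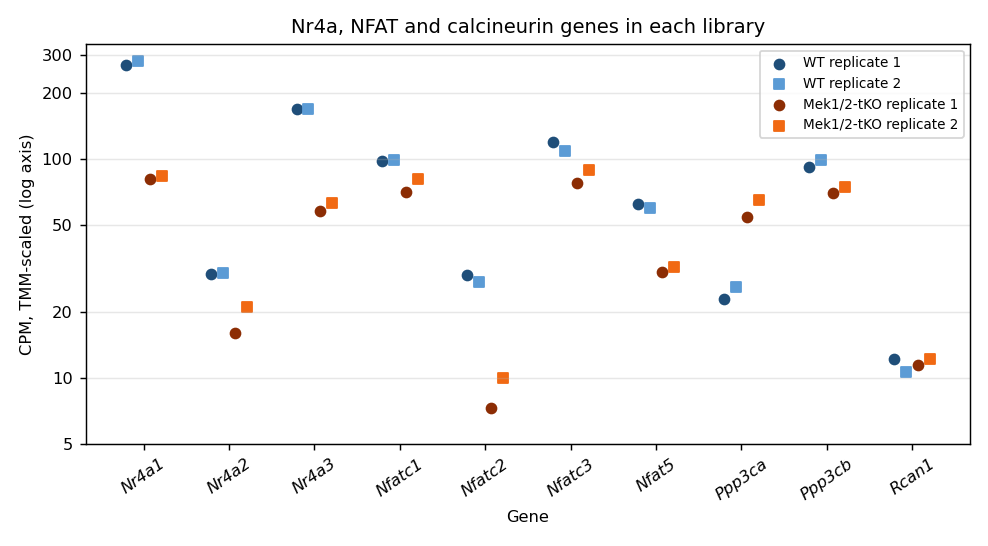
Level of each of the 10 genes in CPM (log axis) in the 4 libraries, 1 point per library, with circles for replicate 1 and squares for replicate 2. The Mek1/2-tKO points lie below the WT points in 8 genes and above them in Ppp3ca, and those of Rcan1 overlap.

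Nr4a1 has 3.51 kb of exons, near the median of 3.66 kb, and its log2 fold change was -1.75 with the trend taken out. Those of Nr4a2 and Nr4a3 were -0.62 and -1.24, so that all 3 receptors still passed both thresholds.

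The NFAT factors differed from each other. Nfatc2 (ENSMUSG00000027544.16, chromosome 2, 168476410 to 168601657), which encodes NFAT1, had 29.6 and 27.4 CPM in WT and 7.23 and 10.01 CPM in Mek1/2-tKO. Both Mek1/2-tKO libraries were under all WT values, and the log2 fold change was -1.72 (standard error 0.17, edgeR adjusted p = 2.18e-06), a 3.29-fold lower level. With the length trend taken out it was -1.31 (95% interval -1.64 to -0.98).

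Nfat5 (chromosome 8, 107293470 to 107379517) had 61.9 and 59.5 CPM in WT and 30.4 and 32.2 CPM in Mek1/2-tKO, a log2 fold change of -0.96 (standard error 0.11, edgeR adjusted p = 5.55e-06). At 18.4 kb it has the longest exons of the members. With the length trend taken out its log2 fold change was -0.44 (95% interval -0.66 to -0.22, edgeR adjusted p = 0.00114), under the fold change threshold.

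Nfatc1, on chromosome 18, which encodes NFAT2 and includes an isoform induced by NFAT itself, had 98.1 and 99.2 CPM in WT and 70.4 and 81.3 CPM in Mek1/2-tKO. Nfatc3 (chromosome 8, 106058840 to 106130537), which encodes NFAT4, had 119 and 109 CPM in WT and 77.5 and 89.04 CPM in Mek1/2-tKO. In both genes the genotypes did not overlap, and neither reached a fold change of 1.5. The log2 fold changes were -0.38 for Nfatc1 and -0.45 for Nfatc3 (standard error 0.10 each, edgeR adjusted p = 0.00456 and 0.00132). With the length trend taken out they were -0.07 (95% interval -0.25 to 0.12) and -0.02 (95% interval -0.20 to 0.16). A count over the gene does not separate the isoforms of Nfatc1.

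**Figure D3:**
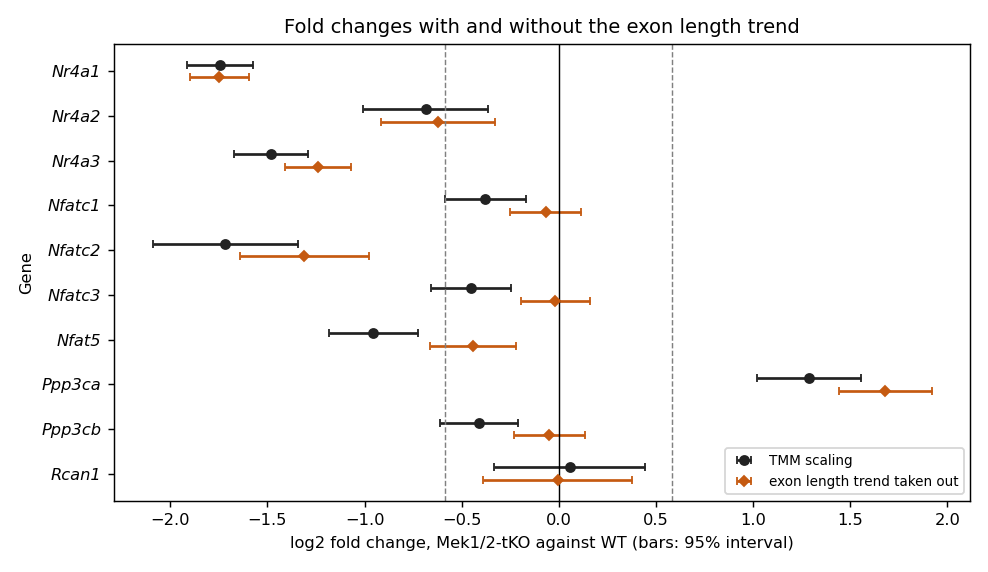
Log2 fold change of each member (Mek1/2-tKO against WT) with TMM scaling (black circles) and with the exon length trend taken out (orange diamonds). Bars are 95% intervals and dashed lines mark a fold change of 1.5 in either direction. The values of Nfatc1, Nfatc3, Ppp3cb and Rcan1 with the trend taken out have intervals that include 0.

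Within the NFAT family, Nfatc2 and Nfat5 had lower shares of the counts per kilobase in both Mek1/2-tKO libraries. Nfatc2 made up 9.49 and 9.10% of NFAT counts in the WT libraries and 3.71 and 4.46% in the Mek1/2-tKO libraries. Nfat5 went from 11.4% in both to 8.99 and 8.24%. Nfatc1 took 44.7 and 46.8% in WT and 51.4 and 51.5% in Mek1/2-tKO, and Nfatc3 took 34.4 and 32.7% against 35.9 and 35.8%. None of these shares overlapped between the genotypes (exact permutation test, p = 0.33 each, the smallest possible). Per kilobase, Nfatc1 exceeded Nfatc2 4.72- and 5.15-fold in the WT libraries and 13.8- and 11.6-fold in the Mek1/2-tKO libraries. Nfatc4 was counted 2 times in WT replicate 2 and not at all in the other libraries, which is under the limit of 3 counts. The NFAT sum went from 29.01 ± 0.71 to 19.8 ± 1.99 CPM per kilobase (SD, n = 2 each). The exon length trend was not taken out of the NFAT shares or of this sum. Exon lengths of Nfatc1, Nfatc2, Nfatc3 and Nfat5 run from 7.43 to 18.4 kb. Nfatc1 and Nfatc3, which held the largest shares, had log2 fold changes of -0.07 and -0.02 with the trend taken out.

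Of the calcineurin catalytic subunits, 1 rose and the other did not pass. Ppp3ca (ENSMUSG00000028161.17, chromosome 3, 136670124 to 136937727), which encodes the α isoform, had 22.8 and 25.99 CPM in WT and 54.3 and 64.6 CPM in Mek1/2-tKO. It was the member that rose, 2.44-fold, at a log2 fold change of 1.29 (standard error 0.12, edgeR adjusted p = 1.52e-06), and ranked 1412 in size among the 2768 higher genes. Its exons span 9.98 kb, and with the length trend taken out the log2 fold change was 1.68. Ppp3cb (chromosome 14, 20499364 to 20546573), the β isoform, had 92.2 and 98.8 CPM in WT and 69.5 and 74.2 CPM in Mek1/2-tKO, with no overlap. Its log2 fold change of -0.41 (standard error 0.09, edgeR adjusted p = 0.00202) was under the fold change threshold, and it was -0.05 (95% interval -0.23 to 0.13) with the length trend taken out.

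Ppp3cc, the γ isoform and a paralogue outside the 10 members, rose from 79.0 and 80.1 CPM to 136 and 122 CPM, with a log2 difference of 0.70 (standard error 0.09, edgeR adjusted p = 2.17e-05) and of 0.62 with the length trend taken out. Per kilobase it was the most abundant catalytic isoform in every library, with 67.5 and 66.01% of the 3 in WT and 77.4 and 73.2% in Mek1/2-tKO. Ppp3ca went from 5.83 and 6.41% to 9.23 and 11.6%, and Ppp3cb from 26.7 and 27.6% to 13.4 and 15.1% (exact permutation test, p = 0.33 for each share, the smallest possible). The size of these differences depends on the unit. Per kilobase the mean share of Ppp3ca differed by 4.31 percentage points and that of Ppp3cb by -12.9, and in plain counts by 10.6 and -20.3 percentage points. The leading isoform in WT depends on the unit too. In plain counts Ppp3cb had 1797 and 1904 in WT against 1539 and 1544 for Ppp3cc. In Mek1/2-tKO Ppp3cb had 1076 and 1393 against 2108 and 2286 for Ppp3cc. The catalytic sum went from 39.9 ± 1.01 to 57.3 ± 2.31 CPM per kilobase (SD, n = 2 each), a ratio of 1.44. The exon length trend was not taken out of these shares or of this sum. Ppp3cc has 2.985 kb of exons, against 8.81 kb for Ppp3cb and 9.98 kb for Ppp3ca. Taking the trend out moved the log2 fold change of Ppp3ca from 1.29 to 1.68. That of Ppp3cb moved from -0.41 to -0.05 and that of Ppp3cc from 0.70 to 0.62. Ppp3r1, the regulatory B subunit, had 95.8 and 79.5 CPM in WT and 65.04 and 62.7 CPM in Mek1/2-tKO, a log2 fold change of -0.46 under the fold change threshold, and Wdr92 covers 14.3% of its exon bases on the same strand. No count of Ppp3r2, the other B subunit gene, was found in any library.

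**Figure D4:**
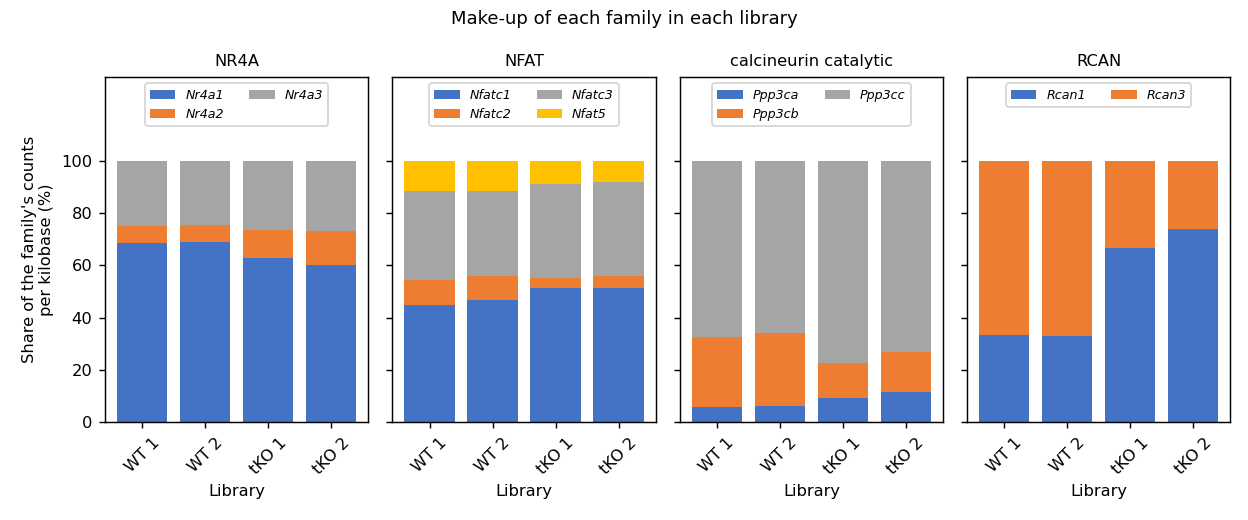
Share of each gene in the counts per kilobase of its family, in percent, with 1 stacked bar per library and 1 panel each for the NR4A receptors, the NFAT factors, the calcineurin catalytic subunits and the RCAN inhibitors (Ppp3cc and Rcan3 are paralogues outside the 10 members). Nr4a2, Nr4a3, Nfatc1, Nfatc3, Ppp3ca, Ppp3cc and Rcan1 take larger shares in both Mek1/2-tKO libraries than in both WT libraries. The exon length trend was not taken out of these shares.

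Rcan1 (ENSMUSG00000022951.16, chromosome 16, 92391953 to 92470867) encodes a calcineurin inhibitor whose shorter isoform is transcribed from an internal start site and is widely used as a readout of calcineurin and NFAT activity. The promoter of an internal start site in the RefSeq table is shown for this reason, in GRCm38.p6, with capitals on the NFAT core GGAAA or its reverse complement TTTCC.
Rcan1, chr16:92400079-92400328, minus strand: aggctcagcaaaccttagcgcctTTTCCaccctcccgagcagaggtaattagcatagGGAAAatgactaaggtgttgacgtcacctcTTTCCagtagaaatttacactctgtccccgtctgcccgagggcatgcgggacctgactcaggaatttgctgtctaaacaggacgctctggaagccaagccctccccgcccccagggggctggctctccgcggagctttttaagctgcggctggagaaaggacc

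This window held 3 NFAT cores, at -227, -193 and -163. At least 1 core was found in 55.6% of all windows and at least 3 in 6.39%. It also held 1 full cAMP response element, TGACGTCA, at -175, which contains both of its half-sites and was found in 1.55% of windows, and 1 AP-1 motif, TGANTCA, at -110, found in 6.75%. The window of the other Rcan1 start site held no NFAT core. Those of Nr4a1 and Nr4a3 held none either, that of Nr4a2 held 1, that of Nfat5 held 2 and that of Ppp3cb held 3, while the 2 windows of Nfatc2 held 3 and 1 and those of Nfatc3 held 1 and 0.

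Rcan1 had 12.1 and 10.6 CPM in the WT libraries and 11.4 and 12.2 CPM in the Mek1/2-tKO libraries. The genotypes overlapped, and the log2 fold change of 0.06 (95% interval -0.33 to 0.44, edgeR adjusted p = 0.815) changed sign under other settings. The counts over the gene do not tell its start sites apart. Its paralogue Rcan3, outside the 10 members, fell from 40.03 and 35.3 CPM to 9.37 and 7.19 CPM, for a log2 fold change of -2.19 (standard error 0.16, edgeR adjusted p = 1.05e-07) and -2.01 with the length trend taken out, and no count of Rcan2 was found in any library. Rcan1 therefore made up 33.4 and 33.2% of RCAN counts per kilobase in the WT libraries and 66.8 and 73.8% in the Mek1/2-tKO libraries (exact permutation test, p = 0.33, the smallest possible).

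Ordered by level per kilobase in WT, the members ran from Nr4a1 with 78.2 CPM per kilobase through Nr4a3, Nfatc1, Ppp3cb, Nfatc3, Nr4a2, Rcan1, Nfat5 and Nfatc2 to Ppp3ca with 2.45 CPM per kilobase. The libraries of neighbours in this order overlapped for Nfatc2 and Ppp3ca alone. In Mek1/2-tKO the order was Nr4a1 with 23.4 CPM per kilobase, Nfatc1, Nr4a3, Ppp3cb, Nfatc3, Ppp3ca, Nr4a2, Rcan1, Nfat5 and Nfatc2 with 0.815 CPM per kilobase, and the libraries overlapped for Nfatc1 and Nr4a3 and for Nr4a2 and Rcan1. Among all tested genes, the level of Nr4a1 per kilobase was at percentile 93.5 in WT and 79.01 in Mek1/2-tKO, and that of Ppp3ca at 34.95 and 52.4.

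The genes around the members were read from a list of 42 further genes of calcium entry, calmodulin, calcineurin and NFAT regulation, of which 37 could be tested. Of these, 4 were higher and 10 lower past both thresholds, or 37.8%, close to the 35.8% of all tested genes, and the median log2 fold change was -0.38. With library totals alone 2 were higher and 14 lower (43.2%, against 36.5% of all tested genes). In that setting all tested genes moved down too, with 2388 higher, 2848 lower and a median log2 fold change of -0.07. With the length trend taken out 3 were higher and 6 lower (24.3%, against 29.4% of all tested genes), with a median of -0.12. Among the genes upstream of calcineurin, Plcg1, the phospholipase that starts calcium release, fell from 85.6 and 83.5 CPM to 23.8 and 23.9 CPM, for a log2 fold change of -1.83 (standard error 0.10). It remained past both thresholds with the length trend taken out, at -1.50. Itpr1, a calcium channel of the endoplasmic reticulum with 18.3 kb of exons, had a log2 fold change of -1.02, and of -0.51 with the trend taken out, where it did not pass. Orai3, a subunit of the calcium channel of the plasma membrane, rose from 24.99 and 22.4 CPM to 48.9 and 57.8 CPM (log2 fold change 1.17, standard error 0.12), and Orai2 rose by 0.60 on the log2 scale. With the trend taken out these were 0.95 and 0.85. Calm2, a calmodulin gene, had a log2 fold change of 0.65, and of 0.35 with the trend taken out, which was under the threshold. Of 8 tested NFAT kinases and scaffolds, 1 was lower and none was higher (12.5%, against 35.8% of all tested genes).

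A second list held 24 factors known to regulate Nr4a transcription or to bind NR4A proteins, of which 23 could be tested. Here 3 were higher and 7 lower (43.5%, against 35.8% of all tested genes), with a median log2 fold change of -0.44. With library totals alone 1 was higher and 9 were lower (43.5%, against 36.5% of all tested genes). With the length trend taken out 2 were higher and 3 lower (21.7%, against 29.4% of all tested genes), with a median of -0.05. Hdac7, a class IIa histone deacetylase that represses Nr4a1 with MEF2 in thymocytes, fell from 194 and 206 CPM to 61.3 and 67.5 CPM, for a log2 fold change of -1.64 (standard error 0.09). It was -1.35 with the trend taken out. Hdac4, of the same class, had a log2 fold change of -1.14 (-0.65 with the trend taken out), and 22.4% of its exon bases lie under a gene on the other strand. That of Ncor1, a nuclear receptor corepressor, was -0.81, and it did not pass with the trend taken out. Mef2c, a factor that binds the Nr4a1 promoter, rose from 35.9 and 31.3 CPM to 57.3 and 65.6 CPM, for a log2 fold change of 0.87 (standard error 0.12) and of 1.36 with the trend taken out. Hdac9 also had a log2 fold change of 0.87, and of 1.36 with the trend taken out, at 2.36 to 5.81 CPM over the 4 libraries, and that of Mef2b was 0.65, which did not pass with the trend taken out.

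Of 24 genes known to be driven by NFAT in T cells, 22 could be tested, and 7 were higher and 10 lower (77.3%, against 35.8% of all tested genes), with a median log2 fold change of -0.58. With the length trend taken out 5 were higher and 12 lower (77.3%, against 29.4%), and the 8 genes named here still passed in the same direction. Many of these genes were already known to differ in these libraries when the list was written. The direction divided cytokine genes from each other. Csf2, which encodes GM-CSF, rose from 5.95 and 10.1 CPM to 174 and 137 CPM, a log2 fold change of 4.28, and Ifng from 127 and 121 CPM to 2054 and 1773 CPM, a log2 fold change of 3.95. Il13 and the receptor gene Havcr2 rose by 1.33 and 2.40 on the log2 scale. By contrast, Il2, the classical NFAT and AP-1 target, fell from 113 and 111 CPM to 15.6 and 9.64 CPM, a log2 fold change of -3.17. Cd40lg, Ctla4 and Il21 had log2 fold changes of -3.95, -2.97 and -2.53 and also fell. Another gene shares 25.9% of the exon bases of Ifng on the same strand, and 12.0% of those of Csf2 lie under a gene on the other strand. NK cells, gamma-delta T cells and CD8 T cells can also express Ifng and Csf2, and the markers of all 3 were higher in both Mek1/2-tKO libraries, as given above. The spleen cells had passed a kit that selects naïve CD4+ T cells, a step meant to remove these cells, and their part in these values was not tested.

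**Figure D5:**
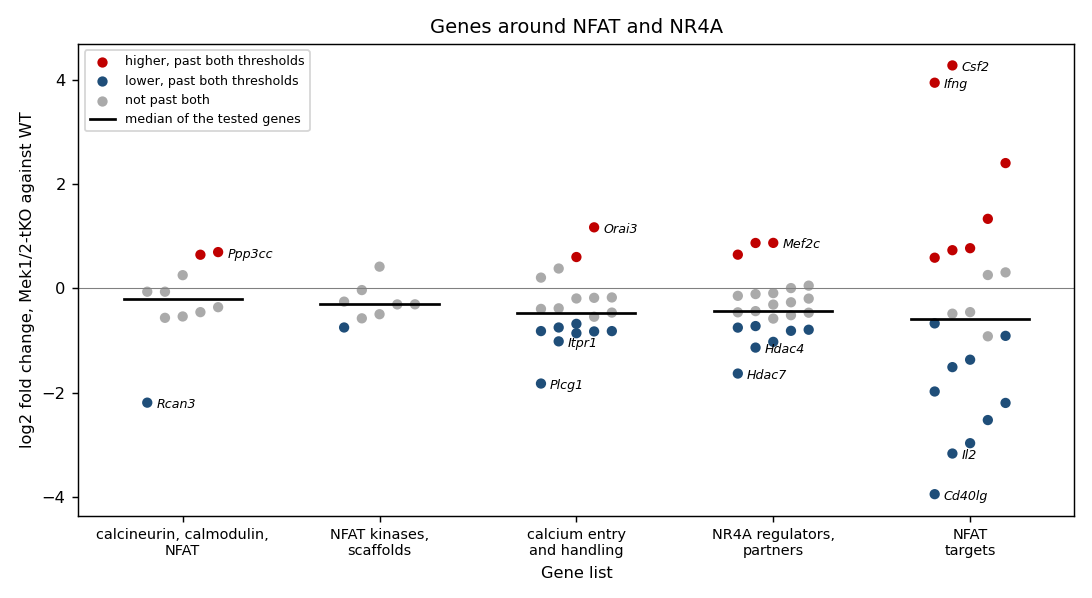
Log2 fold change (Mek1/2-tKO against WT) of the tested genes of the 3 lists, with the calcium and calcineurin list drawn as its 3 sections. Each point is 1 gene, red and blue points passed both thresholds as higher or lower, grey points did not, and black lines are medians. The NFAT targets spread from -3.95 for Cd40lg to 4.28 for Csf2, a wider range than in the other lists.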

How the data were processed

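RNA-seq counts of 2 WT and 2 Mek1/2-tKO libraries were analysed. The authors trimmed reads with Trimmomatic 0.36, mapped them to GRCm38 (the mapper is written STRA), counted those with 1 mapping position per gene by featureCounts of Subread 1.5.1 and deposited raw counts. The annotation release and the strand setting are not given in the sources used here. Symbols matched 54723 of 54752 identifiers.

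R 4.3.3 and edgeR 4.0.16 were used to filter genes (filterByExpr), scale libraries (TMM) and run the robust quasi-likelihood test, with p-values of 14330 genes adjusted by Benjamini-Hochberg. Calls required a fold change of 1.5 or more and an adjusted p under 0.05. Adjusted p-values labelled edgeR are from this test. The standard error is the log2 fold change over the square root of F. Replicates differed by more than sampling noise (chi-square per gene 4.14 in WT and 10.7 in Mek1/2-tKO). The fit was tested on simulated data.

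The members and lists were chosen with earlier results of these data known. Genes named were the members, the targeted genes, paralogues of members, up to 4 called genes per direction and list by fold change, and the most abundant gene of each list of markers of other cells, with Cd4, the CD8 genes, Tcrg-C2 and the myeloid markers at 0 added after their values were seen. Of these, 2 genes are counted in their lists but not reported here. Alternatives were DESeq2 1.42.0, its size factors, library totals, 2 other count filters, 2 other thresholds, a replicate block, leaving out each library and, chosen after seeing the data, offsets for exon length (lowess, span 0.3) and GC content. Promoters came from RefSeq for 8 of the 10 members. Python 3.11.15, pandas 2.3.3, scipy 1.17.1 and matplotlib 3.10.9 were used.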

Additional observations from a re-analysis of the deposited data

How the results depend on the processing

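With 2 libraries per genotype, each SD rests on 2 values and is itself uncertain, and the exact tests of shares cannot pass 0.05. The standard errors of the members ran from 0.08 for Nr4a1 to 0.18 for Rcan1 on the log2 scale. Nr4a1, Nr4a3, Nfatc2 and Ppp3ca kept their direction and passed under every alternative run, a fold change of at least 2 included. Without Mek1/2-tKO replicate 1, Nr4a2 was at -0.50 (range -0.92 to -0.50 over the libraries left out). Nfat5 passed with the other tests, scalings and filters and with any library left out, but was at -0.44 with the exon length trend taken out and at -0.47 with the GC trend also taken out. Rcan1, which was not called, changed sign with library totals alone (-0.029), with the length trend taken out (-0.0055) and with libraries left out (range -0.040 to 0.15).

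Without a fold change threshold, 1 member was higher and 8 were lower, where 3983 of the 14330 tested genes were higher and 3903 lower. The calcium and calcineurin list then had 5 higher and 21 lower of 37. The NR4A regulators had 3 higher and 13 lower of 23, and the NFAT targets 7 higher and 12 lower of 22. At a fold change of at least 2, 1 member was higher and 3 were lower, where 1725 of all genes were higher and 1040 lower. The calcium and calcineurin list had 1 higher and 3 lower, and the NR4A regulators 0 higher and 3 lower. Of the NFAT targets, 4 were higher and 8 lower. With library totals alone, 2388 of all genes were higher and 2848 lower. The calcium and calcineurin list then had 2 higher and 14 lower, and the NR4A regulators 1 higher and 9 lower. The lower genes of these lists were 6 and 3 with the length trend taken out and 5 and 2 with the GC trend also taken out, out of 37 and 23 tested. Their higher genes were 3 and 2 in each of these fits. Of all genes, 2447 were higher and 1769 lower in the first fit, and 2416 and 1746 in the second. Libraries with the same replicate number did not deviate together (correlation -0.0262), and a fit with that number as a replicate block called 2652 genes as higher and 2300 as lower, among them 1 and 5 members.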
